A study of Homo sapiens with 32 samples.

Results

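The NDRG family (N-myc downstream regulated genes) comprises 4 protein-coding genes, NDRG1, NDRG2, NDRG3 and NDRG4, which were taken by symbol from the 19815 protein-coding genes among 60554 annotated genes. All 4 were found, and no other row of the tables carried an NDRG symbol. The family was chosen by the large rise of NDRG1 mRNA in hypoxia, so the hypoxic values of NDRG1 are given as a description without a test. The data are RNA-Seq libraries from 2 human breast lines: MCF10A, which is immortalised but not tumorigenic, and the triple-negative cancer line MDA-MB-231. In each line, cells were kept in normoxia (N) or for 24 hours in 0.5% O2 (H), and PP242, a kinase inhibitor that blocks both mTOR complexes, was given for 3 hours at 2.5 µM to normoxic (NPP) or hypoxic (HPP) cells. N and H cells received the DMSO vehicle instead of PP242. Total mRNA (T) and mRNA from the polysomal part of a sucrose gradient (P) were sequenced with 2 biological replicates in each of 8 groups per line, which gave 32 libraries.

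The lines were not grown alike: the MCF10A medium held insulin, EGF, hydrocortisone and cholera toxin, which were not listed for MDA-MB-231. Line, medium and barcode series coincided and cannot be told apart. Totals ran from 30302497 to 46032327 estimated read counts in the 16 MCF10A libraries and from 18340916 to 39536845 in the 16 MDA-MB-231 libraries. Levels are given as CPM, counts scaled to a common library size, with library sizes adjusted within each line by edgeR's TMM factors. In bulk RNA, fewer cells that hold a message and less of it per cell cannot be told apart.

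Of 6 basal epithelial markers, KRT5 (median 1920 CPM, range 1190 to 3270), KRT14 (median 1540 CPM) and KRT17 (median 221 CPM) were high in MCF10A. The epithelial genes CDH1, EPCAM and TP63 were near 0 there, with highest values of 0.361, 0.461 and 0.226 CPM, while the mesenchymal genes VIM and FN1 had medians of 2620 and 2950 CPM. In MDA-MB-231, VIM had a median of 3970 CPM and ZEB1 one of 61.9 CPM, whereas KRT5 was at a median of 0 CPM. Against this order, EPCAM was higher in MDA-MB-231 (median 12.8 CPM) than in MCF10A (0.303 CPM), and FN1 was lower (132 CPM). CDH2 and SPARC, listed as mesenchymal, had medians of 0.587 and 0.311 CPM in MDA-MB-231 against 54.3 and 136 CPM in MCF10A. The keratins thus fitted the line names, and CDH1, EPCAM and TP63 were not at the level of an epithelial line in the MCF10A libraries.

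In the GRCh38 assembly (GENCODE annotation), NDRG1 (ENSG00000104419.14) lies on chromosome 8 from 133237175 to 133302022 on the minus strand. NDRG2 (ENSG00000165795.21) spans 21016763 to 21070872 on the minus strand of chromosome 14. NDRG3 (ENSG00000101079.20) spans 36651766 to 36746090 on the minus strand of chromosome 20, and NDRG4 (ENSG00000103034.14) spans 58462846 to 58513628 on the plus strand of chromosome 16. Their canonical transcripts were of like length, with 3025, 2978, 2971 and 3208 bases for NDRG1 to NDRG4. The library kit did not mark strand, and NDRG2 overlaps TPPP2 on the other strand, but TPPP2 had no more than 2 counts in any library. The longest exon overlap of NDRG1 with a long non-coding RNA gene on the same strand (ENSG00000289316) is 753 bases. That gene was not analysed here, so its reads in the overlap cannot be told apart from those of NDRG1.

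The NDRG proteins share an alpha/beta hydrolase fold without known enzyme activity. NDRG1 is a classical target of the hypoxia-inducible factors (HIF), is repressed by MYC, and is phosphorylated by SGK1, a kinase that mTOR complex 2 (mTORC2) activates, and then by GSK3. NDRG2 is also repressed by MYC and is often silenced in tumours. NDRG3 protein, rather than its mRNA, is known to respond to oxygen: the prolyl hydroxylase PHD2 (gene EGLN1) marks it for degradation, and lactate protects it. NDRG4 is mainly a gene of brain and heart.

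Hypoxia-inducible factors bind DNA at ACGTG or GCGTG, so the 250 bases before the start of each canonical transcript were searched for these letters on both strands in RefSeq promoter windows (GRCh38.p14). CA9, the carbonic anhydrase gene whose pattern was among those most like NDRG1 (an r of 0.943, given with the likeness values), was picked after its values were seen and is shown as a HIF target for comparison. No entry was used for NDRG1 or NDRG3. Matches stand in capitals on the strand shown, and CACGT is ACGTG read on the other strand. The windows lie at chr14:21025062-21025311 (minus strand), chr16:58499893-58500142 (plus strand) and chr9:35673678-35673927 (plus strand).
NDRG2: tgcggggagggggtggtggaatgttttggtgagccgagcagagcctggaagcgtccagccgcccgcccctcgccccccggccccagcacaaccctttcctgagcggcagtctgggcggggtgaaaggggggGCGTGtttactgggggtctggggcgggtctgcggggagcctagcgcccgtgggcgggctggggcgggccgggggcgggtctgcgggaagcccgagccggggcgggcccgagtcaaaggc
NDRG4: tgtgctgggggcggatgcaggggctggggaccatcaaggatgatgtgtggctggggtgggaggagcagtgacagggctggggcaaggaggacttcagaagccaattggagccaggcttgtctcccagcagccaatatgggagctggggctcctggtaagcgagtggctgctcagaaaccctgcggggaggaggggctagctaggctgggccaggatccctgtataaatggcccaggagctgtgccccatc
CA9: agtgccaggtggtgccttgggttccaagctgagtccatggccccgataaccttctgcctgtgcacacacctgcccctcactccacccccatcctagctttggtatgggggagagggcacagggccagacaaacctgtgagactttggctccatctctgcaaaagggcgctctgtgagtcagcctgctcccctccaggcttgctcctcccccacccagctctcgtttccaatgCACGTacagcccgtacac
The NDRG2 window held 1 GCGTG and no ACGTG, and the NDRG4 window held neither. The CA9 window held 1 ACGTG, printed as CACGT, whose first printed letter lies 18 bases before the start. Of 35116 such windows in RefSeq, 43.2% held either motif, 18.5% ACGTG and 32.2% GCGTG, so a match in a window is common. Over all RefSeq starts, 3 of 5 NDRG2 windows and 1 of 4 NDRG4 windows held a match. A pair of the NDRG2 windows overlap and hold the same GCGTG, so that the 3 windows hold 2 distinct matches.

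Of the members tested, NDRG1 had the largest hypoxic change, which is the value by which the family was chosen. In MCF10A total mRNA its level was 69.7 and 82 CPM in the N replicates and 1200 and 1430 CPM in the H replicates. In polysomal mRNA it was 58 and 92.5 CPM in N and 1010 and 1700 CPM in H. Every hypoxic library thus lay far above every normoxic one in both fractions. In MDA-MB-231 total mRNA the N replicates had 59.2 and 45.8 CPM and the H replicates 818 and 598 CPM. In polysomal mRNA they had 71 and 70.1 CPM in N and 1080 and 810 CPM in H. The groups did not overlap in this line either.

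The hypoxic rise (H against N) of NDRG1 was 17.4-fold in T and 18-fold in P of MCF10A, with log2 fold changes (log2FC) of 4.12 ± 0.39 (SE) and 4.17 ± 0.39. In MDA-MB-231 it was 13.5-fold in T and 13.4-fold in P, with log2FC of 3.75 ± 0.20 in each fraction. By size of log2FC, NDRG1 stood 54th of 13124 tested genes in T and 57th in P of MCF10A, and 20th of 13510 in T and 23rd in P of MDA-MB-231. These are the values by which the gene was chosen, and no test is given for them. For scale, edgeR's quasi-likelihood test called 1.54% (T) and 1.49% (P) of genes in MCF10A and 1.27% (T) and 2.29% (P) in MDA-MB-231 at an adjusted p under 0.05. With PP242 added in hypoxia (HPP), NDRG1 reached 2010 and 2420 CPM in T and 2090 and 3300 CPM in P of MCF10A, the highest levels of the gene in any library. In MDA-MB-231 the HPP libraries held 1040 and 918 CPM in T and 1410 and 1230 CPM in P. Against N, HPP gave log2FC of 4.87 ± 0.40 (T) and 5.16 ± 0.41 (P) in MCF10A and 4.22 ± 0.21 (T) and 4.23 ± 0.21 (P) in MDA-MB-231, again a description. In that contrast 14.9% (T) and 22.2% (P) of genes were called in MCF10A and 13.2% (T) and 19.4% (P) in MDA-MB-231. Cell markers moved in the same contrast: in MCF10A KRT14 rose by 2.37 in T and 2.27 in P, KRT17 by 3.29 and 2.35, and FN1 by 1.67 and 2.64, and VIM rose in T by 1.73. In MDA-MB-231 FN1 rose by 1.28 in T and 1.56 in P, VIM rose by 0.74 in T, and EPCAM fell by 0.57 in P. In HPP against H, 1 marker was called, FN1 in P of MDA-MB-231 (0.90 ± 0.25). Their part in the NDRG1 values was not tested, and no marker was called in H against N or NPP against N in either line.

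**Figure D1:**
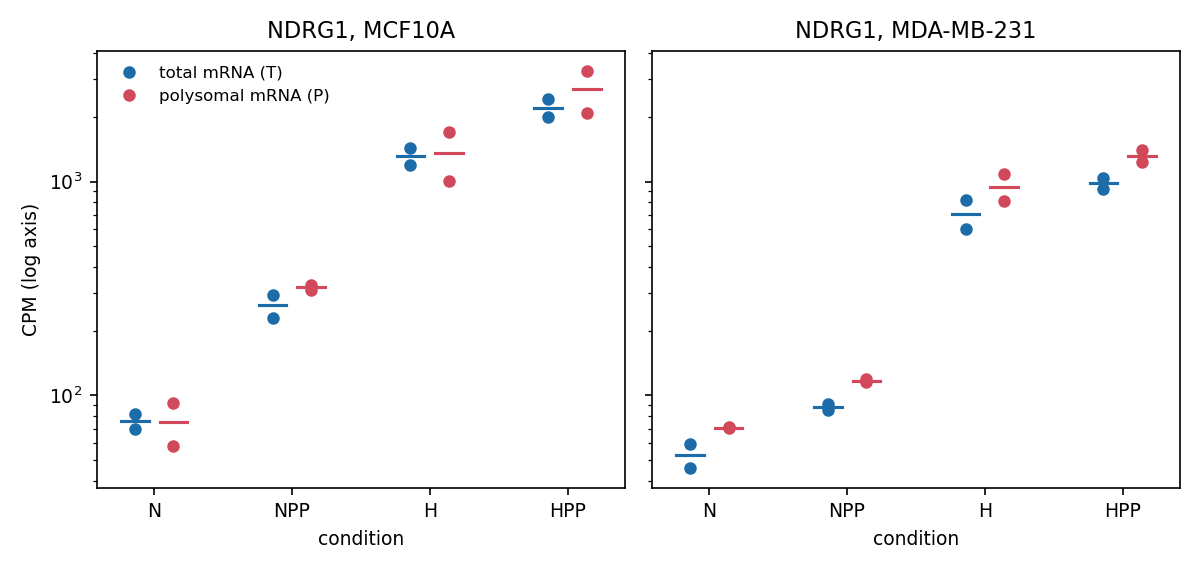
NDRG1 level in each library, as CPM on a log axis, by condition, in MCF10A (left) and MDA-MB-231 (right). Each point is 1 library, bars are means of 2 replicates, and blue and red mark total and polysomal mRNA: levels run from 45.8 CPM in normoxia to 3300 CPM in hypoxia with PP242, with the NPP libraries between N and H.

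NDRG1 was higher in MCF10A cells given PP242 in normoxia than in normoxic cells without it. Total mRNA went from 69.7 and 82 CPM in N to 231 and 296 CPM in NPP, and polysomal mRNA from 58 and 92.5 CPM to 330 and 310 CPM. The NPP libraries lay above the N libraries and below the H libraries in both fractions. The change was 3.48-fold in T (log2FC 1.80 ± 0.35, edgeR adjusted p = 0.0468) and 4.25-fold in P (log2FC 2.09 ± 0.36, edgeR adjusted p = 0.0232). This contrast called 0.648% of genes in T and 0.823% in P. The N libraries are those that also entered the choice of NDRG1. The call in T was kept by DESeq2. With the replicate number as a block it also held, over both fractions or within each (edgeR adjusted p = 0.0209 and 0.00576). It was lost with median-ratio scaling, without the count filter, with all gene classes and in a fit to only the libraries compared. It was also lost in 3 of 4 fits that left out 1 library: without either N replicate (adjusted p = 0.48 and 0.415) or NPP replicate 2 (adjusted p = 0.238). The call in P held in 7 of 7 alternatives that kept all libraries compared, but was lost when any 1 of its 4 libraries was left out.

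In MDA-MB-231, NDRG1 under PP242 was 91.6 and 85.4 CPM in T against 59.2 and 45.8 CPM in N, and 115 and 119 CPM in P against 71 and 70.1 CPM. These groups did not overlap either, but the differences, 1.68-fold in T (log2FC 0.75 ± 0.19) and 1.65-fold in P (log2FC 0.73 ± 0.18), did not pass edgeR's test (adjusted p = 0.0971 and 0.0609). Here 0.555% of genes in T and 1.95% in P were called. The share of all genes whose groups did not overlap was not counted. DESeq2 called both, with adjusted p of 0.00733 (T) and 0.00892 (P), as did edgeR with the replicate block (adjusted p = 0.0192 and 0.0114) and without the count filter (0.00208 and 0.0023). The difference between the lines in this response, MDA-MB-231 minus MCF10A, was −0.98 ± 0.43 on the log2 scale in T and −1.32 ± 0.43 in P. It did not pass the joint edgeR fit (adjusted p = 1 and 0.59), in which 0.056% and 0.126% of genes were called.

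In hypoxia, the change of NDRG1 on adding PP242 (HPP against H) did not pass the test in either line in the fit with the count filter and without a replicate block. In MCF10A the change was 1.68-fold in T (log2FC 0.75 ± 0.34) and 1.99-fold in P (log2FC 0.99 ± 0.35), with edgeR adjusted p of 0.319 and 0.119, where 3.74% and 6.5% of genes were called. In MDA-MB-231 it was 1.38-fold in T (log2FC 0.47 ± 0.18) and 1.39-fold in P (log2FC 0.48 ± 0.18), with edgeR adjusted p of 0.18 and 0.106, where 3.78% and 11.5% were called. With the replicate number as a block, which the labels do not establish as a pairing, P of MDA-MB-231 passed (edgeR adjusted p = 0.0323), and with a block within each fraction P of MCF10A passed too (adjusted p = 0.0184). Without a block, P of MDA-MB-231 passed when the count filter was dropped (edgeR adjusted p = 0.0348). Differences between replicates correlated between groups at 0.283 to 0.778 within T of MCF10A and at −0.1 to 0.635 within P. In MDA-MB-231 all such correlations were −0.187 to 0.348. The fit without a block did not model these shared differences. Both HPP libraries were above both H libraries in each fraction of each line, but the share of all genes with such an order was not counted. The H libraries are among those that chose NDRG1, and whether PP242 acted differently on it in H and in N was not tested.

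NDRG3, the member whose protein is under oxygen and lactate control, kept a nearly constant mRNA level. It ran from 52.1 to 84.4 CPM over the 16 MCF10A libraries and from 43.9 to 67 CPM over the 16 MDA-MB-231 libraries. In MCF10A total mRNA its values were 55.2 and 67.5 CPM in N, 63.4 and 69.3 CPM in H, 53.6 and 64.5 CPM in NPP, and 66.5 and 75.4 CPM in HPP. In MDA-MB-231 total mRNA they were 46.5 and 45.6 CPM in N, 53.1 and 52.4 CPM in H, 51.1 and 43.9 CPM in NPP, and 57.7 and 54.4 CPM in HPP. In MCF10A T, NPP and H overlapped N, HPP overlapped N and H, and NPP lay below HPP, whereas in MDA-MB-231 both H and both HPP libraries were slightly above N. None of the 16 treatment contrasts of NDRG3 passed edgeR's test. The H against N log2FC was 0.11 ± 0.22 in T of MCF10A (95% interval −0.37 to 0.60) and 0.20 ± 0.13 in T of MDA-MB-231 (−0.07 to 0.46). The largest departure was 0.28 ± 0.13 for HPP against N in T of MDA-MB-231, with edgeR adjusted p = 0.152.

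NDRG2 was scarce in both lines. In MCF10A it had 18 to 124 counts per library (0.556 to 2.48 CPM), and in MDA-MB-231 4 to 25 counts (0.132 to 0.953 CPM). MCF10A total mRNA held 1.85 and 1.35 CPM in N and 0.609 and 1.16 CPM in H, and polysomal mRNA held 1.4 and 2.48 CPM in N and 1.09 and 1.21 CPM in H. Both H libraries were thus below both N libraries in each fraction, although the log2FC of −0.86 ± 0.47 (T) and −0.76 ± 0.47 (P) did not pass edgeR's test (adjusted p = 0.605 and 0.586). How many of all genes had H and N libraries apart in this way was not counted. The values with PP242 in hypoxia were 0.556 and 1.14 CPM in T and 0.972 and 1.31 CPM in P. Against N they gave log2FC of −0.92 ± 0.48 and −0.77 ± 0.47, with edgeR adjusted p of 0.238 and 0.257. In MDA-MB-231 the H against N log2FC were 0.31 ± 0.64 (T) and 0.84 ± 0.65 (P), not called, on 7 to 25 counts per library. At this depth a change of NDRG2 of about its own standard error could not be told from none.

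NDRG4 was near the detection limit in MCF10A, with 1 to 10 counts per library, and did not enter the tests there. In MDA-MB-231 it had 23 to 80 counts. Its N libraries held 2.12 and 1.48 CPM in T and 1.96 and 2.49 CPM in P, and its H libraries 1.55 and 1.05 CPM in T and 1.56 and 1.41 CPM in P. H lay below N in P, and the groups overlapped in T. The log2FC were −0.46 ± 0.30 (T) and −0.59 ± 0.29 (P), which did not pass edgeR's test (adjusted p = 0.584 and 0.314). HPP against N gave −0.65 ± 0.30 (T) and −0.53 ± 0.28 (P), with edgeR adjusted p of 0.164 and 0.202. NPP libraries held 2.3 and 1.84 CPM in T and 2.01 and 2.15 CPM in P, within the range of N or close to it.

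**Figure D2:**
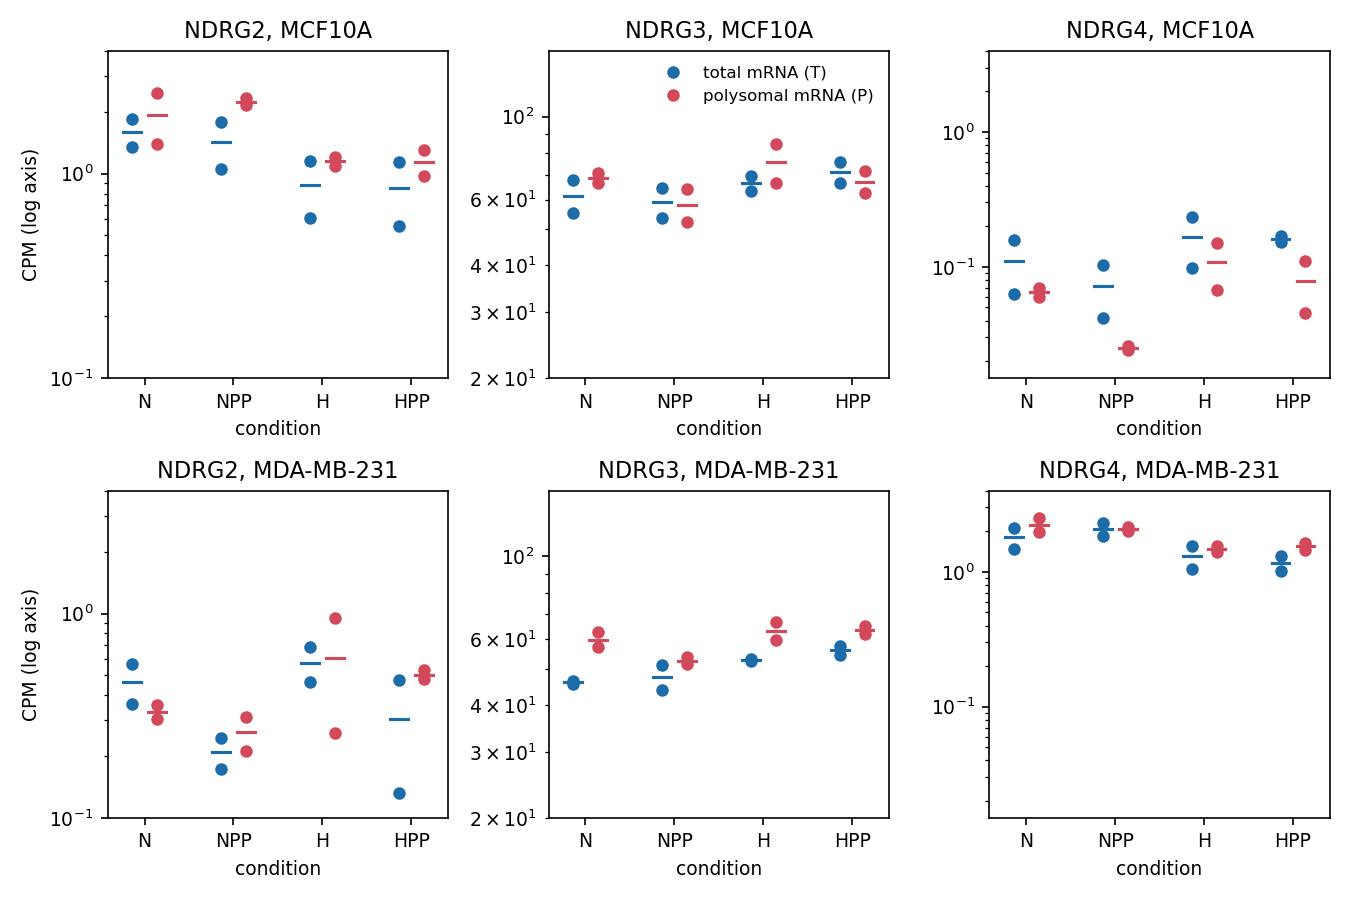
Levels of NDRG2, NDRG3 and NDRG4 in each library, as CPM on a log axis with 1 scale per gene, by condition, in MCF10A (top) and MDA-MB-231 (bottom). Points are libraries, bars are means of 2 replicates, and blue and red mark total and polysomal mRNA: NDRG3 stays between 43.9 and 84.4 CPM, NDRG2 is higher in MCF10A, and NDRG4 is higher in MDA-MB-231.

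**Figure D3:**
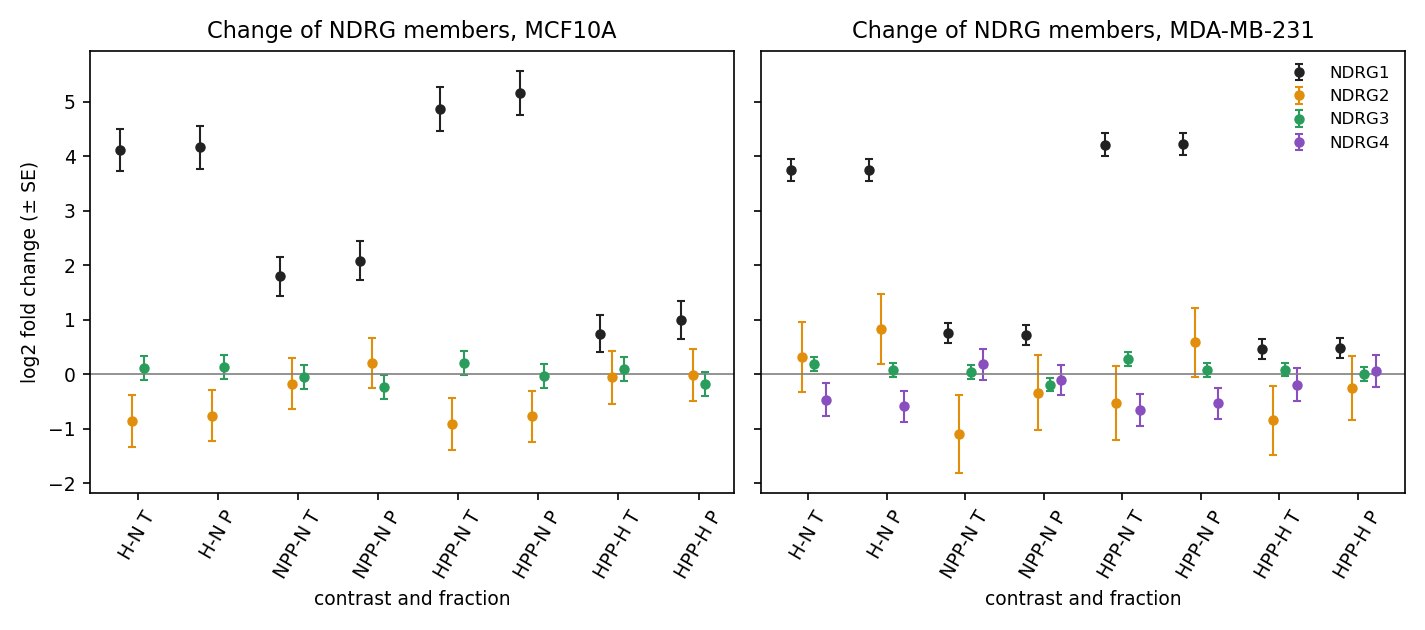
Log2 fold change with its SE for each family member that was tested, by contrast and fraction, in MCF10A (left) and MDA-MB-231 (right). NDRG1 is above 0 in all 8 contrasts of each line, from 0.47 to 5.16, while NDRG3 stays between −0.24 and 0.28.

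Per transcript length, NDRG1 and NDRG3 together made up nearly all of the family's mRNA. The values here are shares of the summed CPM per kilobase of the 4 genes within a library. In N, NDRG1 took 45.6% to 55.4% of the sum in MCF10A and 48.6% to 54.3% in MDA-MB-231, with NDRG3 close to the remainder. In N, then, the order of NDRG1 and NDRG3 was not fixed: NDRG3 was ahead in 1 MCF10A library (53.2% of the sum) and in 1 MDA-MB-231 library (49.3%), and NDRG1 was ahead in the other 30 libraries of the series. With PP242 in normoxia the NDRG1 share was 80.6% to 85.7% in MCF10A and 62.8% to 67.7% in MDA-MB-231. In H it was 93.6% to 95.2% and 91.6% to 93.9%, and in HPP 96.7% to 97.8% and 94.2% to 95.6%. The summed level itself rose from 42 to 55.3 CPM per kilobase in N to 687 to 1120 in HPP of MCF10A, and from 31.2 to 45.2 in N to 322 to 489 in HPP of MDA-MB-231. Among the scarce members the order differed by line: NDRG2 was above NDRG4 in 16 of 16 MCF10A libraries and NDRG4 above NDRG2 in 16 of 16 MDA-MB-231 libraries.

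**Figure D4:**
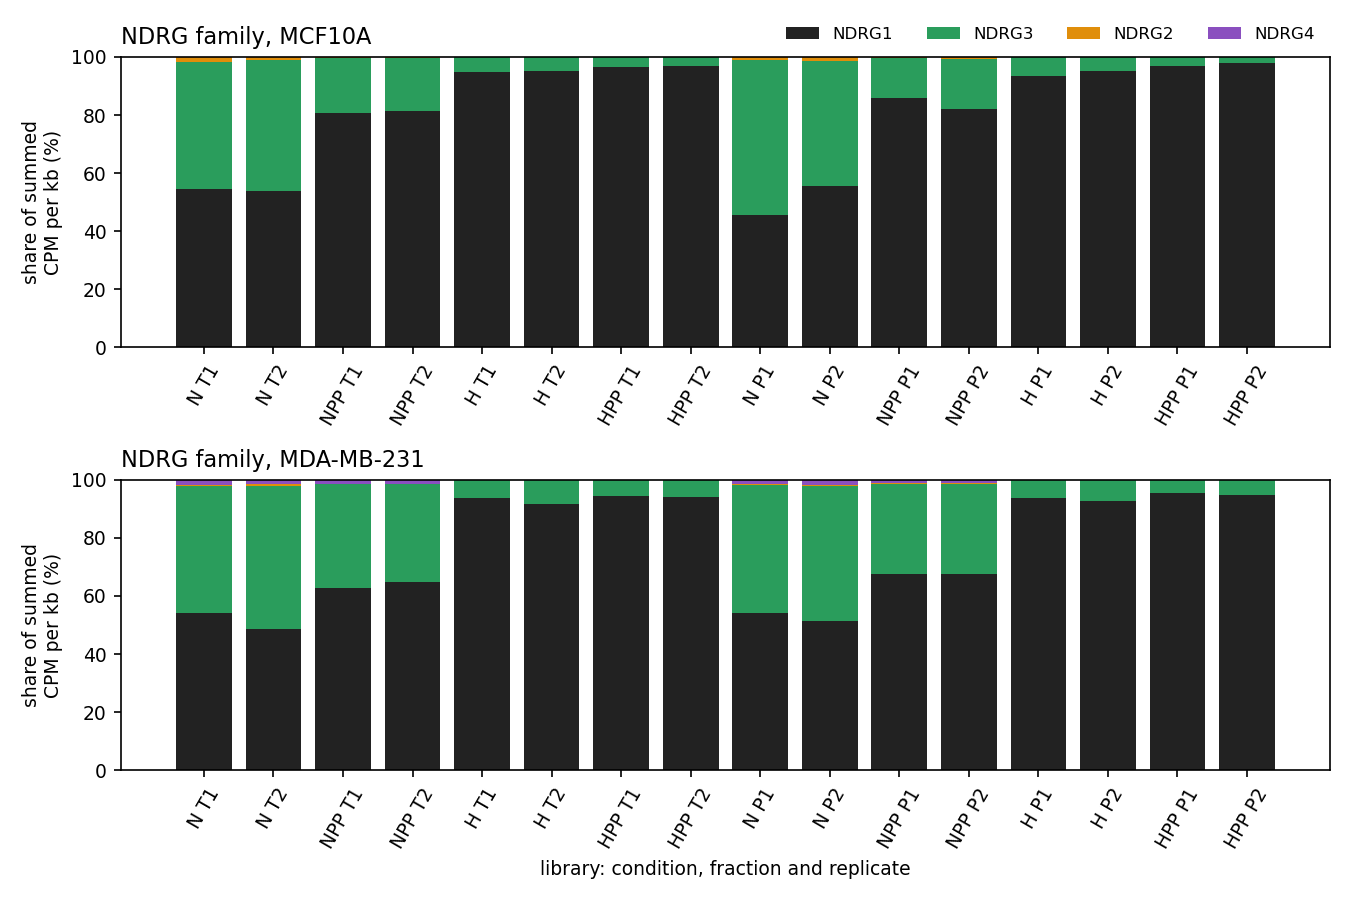
Share of each member in the summed CPM per kilobase of the 4 genes, in percent, 1 bar per library, for MCF10A (top) and MDA-MB-231 (bottom). NDRG1 (black) takes 45.6% to 55.4% in N and 91.6% or more in every H and HPP library, with NDRG3 (green) as nearly all of the rest.

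The question of the polysomal libraries is whether a message changed in translation apart from its level. Translational efficiency (Te) was taken as the log2FC in P minus that in T. Because libraries were scaled to a common size, Te is relative to all messages and does not measure the absolute amount in polysomes. For NDRG1, Te was 0.05 ± 0.49 in H and 0.29 ± 0.49 in HPP of MCF10A, and −0.01 ± 0.26 and 0.01 ± 0.26 in MDA-MB-231, all given as description. Under PP242 in normoxia, it was 0.29 ± 0.49 in MCF10A (edgeR adjusted p = 0.99) and −0.03 ± 0.26 in MDA-MB-231 (adjusted p = 1). Leaving out 1 library gave −0.034 to 0.672 in MCF10A and −0.228 to 0.147 in MDA-MB-231. Relative to all messages, NDRG1 thus rose in polysomes about as much as in total mRNA. The 95% intervals for the NPP values were −0.77 to 1.35 and −0.58 to 0.53. No Te of NDRG2, NDRG3 or NDRG4 was called. The test of Te called few genes at all: 0% in H, NPP and HPP of MCF10A, and 0.0148%, 0.34% and 0.696% in MDA-MB-231. In MCF10A, 23, 296 and 433 genes had an unadjusted p under 0.05, and DESeq2 called 0, 94 and 140 genes.

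Polysome loading, the log2 level in P minus that in T within a condition, is likewise relative to all messages. For NDRG1 it was near 0 in normoxic MCF10A cells (−0.01 ± 0.34). It was 0.16 ± 0.22 for NDRG3 and 0.29 ± 0.46 for NDRG2. Leaving out 1 library gave −0.385 to 0.208 (NDRG1), 0.025 to 0.316 (NDRG3) and −0.193 to 0.557 (NDRG2). In normoxic MDA-MB-231 cells NDRG1 had 0.42 ± 0.19 (edgeR adjusted p = 0.141) and NDRG3 0.38 ± 0.13 (edgeR adjusted p = 0.0597). The NDRG1 value was 0.253 to 0.632 when 1 library was left out. For NDRG3 the N libraries held 57.2 and 62.7 CPM in P against 46.5 and 45.6 CPM in T. They did not overlap, but the share of all genes without overlap was not counted. The edgeR test of loading called 13.1% of genes in MDA-MB-231 and 0% in MCF10A. In MCF10A, 1660 genes had an unadjusted p under 0.05 and DESeq2 called 0.77% of genes. DESeq2, median-ratio scaling, all gene classes and the replicate block each called the loading of NDRG3 in MDA-MB-231 (adjusted p = 0.0103, 0.0362, 0.0387 and 0.0486). These were 4 of 8 alternatives, and the others did not call it (edgeR adjusted p up to 0.157). Leaving out 1 library gave 0.353 to 0.419.

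Between the lines, NDRG1, NDRG2 and NDRG3 were lower in normoxic MDA-MB-231 than in normoxic MCF10A total mRNA, and NDRG4 was higher. These levels are CPM scaled jointly over the 32 libraries. NDRG2 had 2.18 and 1.59 CPM in MCF10A against 0.311 and 0.476 CPM in MDA-MB-231, which is 4.85-fold lower (log2 difference −2.28 ± 0.59, edgeR adjusted p = 0.00367). NDRG3 had 64.8 and 79.8 CPM against 40.4 and 38.2 CPM, 1.84-fold lower (−0.88 ± 0.19, edgeR adjusted p = 0.000789). NDRG1 had 81.8 and 96.9 CPM against 51.4 and 38.3 CPM, 1.99-fold lower (−0.99 ± 0.30, edgeR adjusted p = 0.0123), in N libraries that also entered the choice of NDRG1. In these groups, all MDA-MB-231 libraries lay below all MCF10A libraries, in a comparison that called 40.7% of all genes. The NDRG1 difference was no longer called without replicate 2 of MCF10A or replicate 2 of MDA-MB-231 (adjusted p = 0.0835 and 0.126). That of NDRG2 was just lost without replicate 1 of MDA-MB-231 (adjusted p = 0.0538).

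In polysomal mRNA, where 45.4% of genes were called, NDRG2 was 7.3-fold lower in MDA-MB-231 (log2 difference −2.87 ± 0.60, edgeR adjusted p = 0.000505) and NDRG3 1.42-fold lower (−0.51 ± 0.19, edgeR adjusted p = 0.0325). The NDRG3 difference lost its call when any 1 of its 4 libraries was left out (adjusted p of 0.06 to 0.166). NDRG1 did not pass there (−0.42 ± 0.30, edgeR adjusted p = 0.274), with 82.7 ± 28.7 CPM (SD, n = 2) in MCF10A, whose lower library was at 62.4 CPM, against 62.7 and 61.6 CPM in MDA-MB-231. The groups overlapped. Without replicate 2 of MCF10A that NDRG1 difference was −0.02. NDRG4 entered the joint fit only through MDA-MB-231, so its difference is a description. It had 6 and 3 counts in T and 2 and 3 counts in P of the MCF10A N libraries against 59 and 26 counts in T and 45 and 77 counts in P of MDA-MB-231. The ratio of the scaled sums was 12.9 in T (95% exact counting interval 6.5 to 29.2) and 28.5 in P (11.9 to 89.2), which covers counting error only.

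A list of 18 comparators known to rise in hypoxia was chosen with earlier results of these data known, so its counts are a description. In edgeR's test of H against N, 14 rose in T and 14 in P of MCF10A. In MDA-MB-231, 14 rose in T and 15 in P, and none fell in either line. The share of all genes called there was 1.54% (T) and 1.49% (P) for MCF10A and 1.27% (T) and 2.29% (P) for MDA-MB-231. Their median log2FC was 2.22 in T and 2.33 in P of MCF10A and 1.79 in T and 1.76 in P of MDA-MB-231, beside medians over all tested genes of −0.03, −0.07, −0.02 and 0.01. CA9, an extracellular carbonic anhydrase, had the highest log2FC of the list in MCF10A T and P (5.95 and 5.98) and in MDA-MB-231 T and P (5.46 and 5.62). PPFIA4, a liprin scaffold gene (5.07 in T and 5.25 in P of MCF10A), and SPAG4, a nuclear envelope gene (4.43 and 4.78), came next. In MCF10A, these 3 genes had larger log2FC than NDRG1 in both fractions, and the other 15 had smaller ones. With PP242 in normoxic MCF10A cells, where NDRG1 rose, 0 of 18 comparators were called in T and in P, with medians of −0.08 and −0.20, by edgeR without a block, against 1 and 3 by DESeq2 and 1 in P with the replicate block. With 0.648% and 0.823% of all genes called in that contrast, a count of 0 is near the background. In MDA-MB-231, ANKRD37 rose 2.29-fold in T and 2.99-fold in P, KDM3A, a histone demethylase, rose in P (log2FC 0.93), and ANGPTL4, a secreted lipase inhibitor, fell by 1.40 in T and by 1.51 in P, where 0.555% (T) and 1.95% (P) of all genes were called. HPP against H called no comparator in MCF10A T or P by edgeR without a block, against 2 and 3 by DESeq2 and 1 in P with the replicate block, where 3.74% and 6.5% of all genes were called. In MDA-MB-231 it called ANGPTL4 lower in T and P (−1.27 and −1.26) and ANKRD37 and LOX, a collagen cross-linking enzyme, higher in P (0.58 and 0.54), where 3.78% (T) and 11.5% (P) of all genes were called.

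By Pearson's r of log2 CPM over the 32 libraries, each centred within its line, the genes most like NDRG1 among 12373 tested in both lines were P4HA1 (r = 0.962), CA9 (0.943), GBE1 (0.939), TCAF2 (0.938) and ALDOC (0.938). P4HA1 is a collagen prolyl hydroxylase, GBE1 the glycogen branching enzyme and ALDOC a glycolytic aldolase. These 32 points share libraries, conditions and scaling, so the values are a description. Within the lines alone P4HA1 had r = 0.957 (MCF10A) and 0.979 (MDA-MB-231), and over P libraries only CA9 and ALDOC fell to the 12th and 19th place, and over T libraries only GBE1 fell to the 15th.

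Of 13 genes for the kinases of NDRG1 and for mTORC2, 12 were tested in MCF10A and 11 in MDA-MB-231. None was called in H against N in MCF10A, near the background of 1.54% (T) and 1.49% (P), and the list medians were −0.28 in T and −0.25 in P. In MDA-MB-231 SGK3, an endosomal relative of SGK1, fell in P (log2FC −0.71 ± 0.18, edgeR adjusted p = 0.0486), and in T its log2FC was −0.58 ± 0.17 (adjusted p = 0.145). In MCF10A, where it was not called, SGK3 was also lower in H. Its T libraries had 7.57 and 6.87 CPM in N and 4.71 and 3.86 CPM in H. Its P libraries had 5.45 and 7.15 CPM in N and 3.57 and 3.56 CPM in H. SGK1 had 257 and 159 CPM in N, 391 and 261 CPM in NPP, 244 and 235 CPM in H and 309 and 288 CPM in HPP of MCF10A T. Its P libraries had 197 and 170 CPM in N and 486 and 335 CPM in NPP, with a log2FC of 1.16 ± 0.30 that did not pass (edgeR adjusted p = 0.0941). SGK1 was called in 1 of the 8 contrasts of MCF10A, HPP against N in P (log2FC 0.91 ± 0.29, edgeR adjusted p = 0.046), and in none of MDA-MB-231. In HPP against N of MCF10A, MAPKAP1 (an mTORC2 subunit) fell in T by 0.87 and in P by 0.86, and PRR5 (another subunit) fell by 2.17 in P. In MDA-MB-231 the same contrast called 1 gene, SGK3, in T (−0.57 ± 0.17), which DESeq2 did not call. The share of all genes called in HPP against N was 14.9% (T) and 22.2% (P) for MCF10A and 13.2% (T) and 19.4% (P) for MDA-MB-231. No gene of the list was called in NPP against N or HPP against H in either line by edgeR; DESeq2 called 1 in P of each of these contrasts in MCF10A. The share of all genes called there was 0.555% to 11.5%.

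Oxygen and lactate control was represented by 13 genes. In H against N, edgeR called 2 higher in each fraction of MCF10A, with list medians of 0.015 (T) and −0.008 (P). In MDA-MB-231 it called 4 higher and 1 lower in each fraction, with medians of −0.077 (T) and 0.193 (P). The share of all genes called was 1.54% (T) and 1.49% (P) for MCF10A and 1.27% (T) and 2.29% (P) for MDA-MB-231. LDHA, the lactate dehydrogenase subunit that makes lactate, rose with NDRG1 in H: by 1.77 ± 0.34 in T and 1.67 ± 0.34 in P of MCF10A (edgeR adjusted p = 0.0261 and 0.0342), and by 1.63 ± 0.19 and 1.39 ± 0.19 in MDA-MB-231. EGLN3, a HIF prolyl hydroxylase, rose by 5.79 in T and 6.56 in P of MCF10A and by 2.34 and 2.25 in MDA-MB-231. EGLN1, which encodes the hydroxylase that acts on NDRG3, rose by 1.22 ± 0.14 in T and P of MDA-MB-231, and its values of 1.28 ± 0.34 and 1.40 ± 0.34 in MCF10A did not pass (edgeR adjusted p = 0.107 and 0.0722). HIF1A, the oxygen-sensitive HIF subunit, fell in MDA-MB-231 (−1.58 ± 0.19 in T, −1.79 ± 0.19 in P). In MCF10A it had −0.25 ± 0.46 in T, not called, and no gene of the list fell. EPAS1, another HIF alpha gene, was called in no H against N contrast (T log2FC −0.95 ± 0.36 in MCF10A and 0.24 ± 0.35 in MDA-MB-231). EGLN3 fell when PP242 was added in hypoxia: HPP against H gave −2.11 ± 0.41 in T and −1.86 ± 0.41 in P of MCF10A, and −0.94 ± 0.19 and −0.90 ± 0.19 in MDA-MB-231, all called by edgeR. It was the 1 gene of the list called there. All genes were called at 3.74% (T) and 6.5% (P) in MCF10A and 3.78% (T) and 11.5% (P) in MDA-MB-231.

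Among 7 transcription factors that act on NDRG genes, of which 6 were tested in each line, MYC rose with PP242 in polysomal mRNA of normoxic MCF10A cells. In MCF10A T it had 198 and 180 CPM in N and 374 and 536 CPM in NPP, and in P 174 and 205 CPM in N and 605 and 487 CPM in NPP. The NPP libraries were above the N libraries in each fraction. The log2FC was 1.27 ± 0.29 in T (edgeR adjusted p = 0.0872) and 1.52 ± 0.29 in P (edgeR adjusted p = 0.032). HPP against H gave 1.23 ± 0.29 in T and 1.40 ± 0.29 in P of MCF10A, both called, and 0.60 ± 0.13 in P of MDA-MB-231, which was called. In HPP against N, 1 gene of the list rose and 1 fell in each fraction of MCF10A, and 1 rose in each fraction of MDA-MB-231, beside 14.9% (T) and 22.2% (P) of all genes called for MCF10A and 13.2% (T) and 19.4% (P) for MDA-MB-231. In that contrast, where NDRG1 had its highest log2FC, MYC, a repressor of NDRG1 and NDRG2, also rose, by 1.08 in T and 1.29 in P of MCF10A and by 0.57 in T and 0.54 in P of MDA-MB-231. In H against N MYC was not called, with −0.15 ± 0.28 in T of MCF10A and 0.14 ± 0.13 in T of MDA-MB-231.

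The last list held 7 trafficking and junction partners of NDRG1, of which 6 were tested in MCF10A and 7 in MDA-MB-231. NEDD4L, a ubiquitin ligase that SGK1 phosphorylates, rose with PP242 in normoxic MCF10A cells by 1.56 ± 0.29 in T and 1.97 ± 0.29 in P (edgeR adjusted p = 0.0368 and 0.0122). In normoxic MDA-MB-231 cells it had 0.37 ± 0.16 and 0.34 ± 0.16, not called. In HPP against H, 1 gene of the list rose in T of each line, 2 rose and 1 fell in P of MCF10A, and 1 rose and 1 fell in P of MDA-MB-231, in a contrast where the share of all genes called was 3.74% (T) and 6.5% (P) for MCF10A and 3.78% (T) and 11.5% (P) for MDA-MB-231. NEDD4L rose there by 1.43 in T and 1.77 in P of MCF10A. RAB4A, a recycling endosome GTPase that binds NDRG1, fell in HPP against H in P of MCF10A (−1.34 ± 0.34) and of MDA-MB-231 (−0.89 ± 0.21). None of the list was called in H against N in T or P of either line by edgeR, where 1.27% to 2.29% of all genes were, so that a count of 0 is near the background.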

How the data were processed

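The tables of 32 RNA-Seq libraries (total and polysomal mRNA, 16 per cell line) were analysed. Per the labels and the methods of the study, the authors aligned reads with STAR and estimated counts per gene with RSEM; they deposited expected counts as whole numbers, with no normalisation. RSEM shares reads that fit several genes. The labels name GRCh37 and the methods GRCh38, the tables hold no coordinates, and the positions given here are those of GENCODE release 44 (GRCh38). The rounded counts were used as deposited.

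Tests were edgeR 4.0.16 quasi-likelihood F tests (R 4.3.3) with TMM factors, filterByExpr and Benjamini-Hochberg adjustment over all tested protein-coding genes, at 0.05. The 16 libraries of a line were fitted in 8 groups, and all 32 libraries in 16 groups for line differences. The filter left 13124 genes in MCF10A (NDRG1, NDRG2 and NDRG3), 13510 in MDA-MB-231 and 14298 in the joint fit (all 4 members). SE was |log2FC| divided by the square root of F. Levels per length used the canonical transcript. With 2 libraries a group, spread was pooled over groups. Where groups are said to lie apart, the share of all genes whose groups did so was not counted. The steps were tested on simulated data.

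Named genes were the 4 members, up to 3 called genes with the largest change in each list, and fixed genes (SGK1, SGK3, HIF1A, EPAS1, EGLN1, LDHA and MYC among them). Some genes that this rule names are not reported here. The members and lists were chosen with earlier results of these data known. Alternatives were DESeq2 1.42.0, median-ratio (RLE) scaling, no filter beyond 1 read, all gene classes, only the libraries compared, blocks for replicate number or culture, and leaving out each library.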

Additional observations from a re-analysis of the deposited data

How the results depend on the processing

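The hypoxic rises of NDRG1 (H and HPP against N, both fractions and lines) stayed within 3.50 and 5.53 on the log2 scale under all alternatives. Leaving out 1 library at a time gave 4.73 to 5.09 for HPP against N in T of MCF10A, 3.53 to 3.96 for H against N in P of MDA-MB-231, 4.05 to 4.42 for HPP against N in T and 4.12 to 4.32 in P of MDA-MB-231. In P of MCF10A it gave wider ranges, 3.74 to 4.58 for H against N and 4.79 to 5.53 for HPP against N. No treatment contrast of NDRG2, NDRG3 or NDRG4 was called under any alternative run. The NDRG1 response to PP242 in normoxia kept its sign in all of them. In T of MCF10A it was not called with median-ratio scaling (1.84), without the filter (1.80), with all gene classes (1.77) or with only the libraries compared (1.79), and leaving out 1 library gave 1.608 to 1.960 in T and 1.79 to 2.47 in P. In MDA-MB-231 it became a call in T with DESeq2 (0.77), without the filter (0.80), and with the replicate block (0.76) or the replicate block within each fraction (0.77). In P it became one with DESeq2 (0.71), without the filter (0.76), with the replicate block (0.73), with that block within each fraction (0.73) and with only the libraries compared (0.73). HPP against H became a call in P of MDA-MB-231 without the filter (0.52), with the replicate block (0.49) and with it within each fraction (0.49), and in P of MCF10A with the replicate block within each fraction (1.00); leaving out 1 library gave 0.27 to 0.78 in T (called without H replicate 1, edgeR adjusted p = 0.0476) and 0.30 to 0.73 in P of MDA-MB-231, and 0.62 to 1.42 in P of MCF10A. The causes were not tested.

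For the line differences, leaving out 1 library gave −1.24 to −0.80 (NDRG1), −2.58 to −1.99 (NDRG2) and 3.04 to 4.30 (NDRG4) in T, and −0.58 to −0.45 (NDRG3) in P. The NDRG3 difference in P was not called with all gene classes (−0.50), with the replicate block within each line (−0.34) or with only the libraries compared (−0.51), and with that block NDRG4 in P was 4.38. The main fit did not pair replicates. Of 28 between-group correlations of their differences, 11 were over 0.1 in MCF10A (6 of 6 within T, up to 0.778) and 19 in MDA-MB-231. For the members, the culture block was run for Te and loading only, and it changed no call there. Median-ratio scaling moved the median of all genes by over 0.1 only in the line difference of NPP against N in T (from 0.04 to −0.07, and to −0.09 with DESeq2), and NDRG1 was −1.11 with either.

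Counts of called genes over all genes varied more: over the alternatives, other than leaving out a library, H against N called 191 to 601 (T) and 6 to 556 (P) in MCF10A, against 202 and 195, and 44 to 499 and 162 to 822 in MDA-MB-231, against 171 and 310. NPP against N called 0 to 358 and 95 to 666 in MCF10A, against 85 (T) and 0.823% of genes (P), and 14 to 324 and 160 to 569 in MDA-MB-231, against 75 and 264. HPP against N called 1212 to 3484 and 1642 to 4785 in MCF10A, against 1956 and 2910; HPP against H called 0 to 1153 and 38 to 1951 in MCF10A, against 491 and 853, and 146 to 970 and 1562 to 2391 in MDA-MB-231, against 511 and 1551. Loading in N called 0 to 2189 in MCF10A, against 0, and 1568 to 2959 in MDA-MB-231, against 1764. Te in MDA-MB-231 called 2 to 18 (H), 8 to 122 (NPP) and 75 to 157 (HPP), against 2, 46 and 94. The line difference of NPP against N called 0 to 43 (T) and 2 to 57 (P), against 8 and 18. Leaving out 1 library called 32 to 87 genes for H against N in T (202 with all libraries), 3 to 398 (T, 85 with all) and 8 to 20 (P, 0.823% of genes with all) for NPP against N and 71 to 136 (T, 491) and 131 to 442 (P, 853) for HPP against H in MCF10A. In MDA-MB-231 it called 10 to 82 (T, 75) and 88 to 160 (P, 264) for NPP against N and 24 to 792 (T, 511) and 368 to 1032 (P, 1551) for HPP against H, and the line difference of NPP against N gave 1 to 1388 (T, 8) and 3 to 20 (P, 18). The other H against N counts, all HPP against N counts and the loading count of MDA-MB-231 also fell whenever 1 library was left out. With 4 to 25 counts, NDRG2 in MDA-MB-231 is limited by depth.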

Other observations

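The genes whose pattern over the 32 libraries, centred within lines, was most like NDRG3 were RNF187 (r = 0.829), PARVA (0.806), KCNAB2 (0.801), MBOAT7 (0.788) and TMED10 (0.78). For NDRG2 they were ALAS1 (0.754), the first enzyme of haem synthesis, TPST1 (0.677), MAP2K3 (0.669), IL27RA (0.663) and UNC50 (0.663), on counts of NDRG2 as low as 4 per library. Their places moved with the fraction: over T libraries only, IL27RA was 894th, MAP2K3 354th and TMED10 289th, and over P libraries only, UNC50 was 151st, TPST1 149th and MBOAT7 200th. MAP2K3 had r = 0.882 within MCF10A and 0.446 within MDA-MB-231. The top values for both were below that of NDRG1 (0.962), and the points share libraries and scaling.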
